A study of Mus musculus with 4 samples.

Results

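The NR4A and EGR genes examined here are Nr4a1, Nr4a2 and Nr4a3, which encode orphan nuclear receptors, and Egr1, Egr2 and Egr3, which encode zinc finger transcription factors. The members were taken by name, and all 6 of 6 were found among the genes of both RNA libraries. The cells came from chimeric tumours of wild-type B6 hosts (Thy1.2+), collected on day 30 after inoculation. Both groups of hosts were given Pmel-1 CD8 T cells (Thy1.1+), which carry a transgenic receptor for a melanocyte antigen, together with adjuvant. The groups differ in whether the transferred cells had been polarised as Tc1 or as Tc9 cells, and each library bears that name. Tumours of 3 mice were pooled per group, digested with enzymes, enriched on Percoll and sorted, and each pool gave 1 RNA library and 1 T cell receptor library. With 1 library per group no test between groups was possible, and every interval is a 95% interval of counting error only.

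Antigen binding by the T cell receptor switches on NR4A and EGR genes within a short time, through calcium and MAP kinase signals, without new protein synthesis. Nr4a1, also called Nur77, is widely used as a reporter of receptor signalling, and Nr4a1 to Nr4a3 restrain effector T cells and act in regulatory T cells. Egr1 is induced by growth factors and stress in many cell types, while Egr2 and Egr3 are known for inducing genes that limit T cell activation. Fos and Jun are also immediate early genes, and their RNA is known to increase when tissue is digested, so they were read alongside the members. Whether digestion also raised the members themselves was not tested.

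The sequences before the start sites are shown because the 3 NR4A genes carry a common element, the half-site of the cyclic AMP response element (letters TGACG, searched on both strands). In the 250 bases before the start, Nr4a1, Nr4a2 and Nr4a3 each held 4 half-sites, while 17.8% of 32851 RefSeq windows of that length held at least 1 and 0.137% held at least 4. Capitals mark the half-sites, which read CGTCA on the other strand, and the build is GRCm38.p6.
Nr4a1, chr15:101266608-101266637, plus strand: ccctgCGTCAatggaaccccgcgtgCGTCA
Nr4a2, chr2:57124098-57124215, minus strand: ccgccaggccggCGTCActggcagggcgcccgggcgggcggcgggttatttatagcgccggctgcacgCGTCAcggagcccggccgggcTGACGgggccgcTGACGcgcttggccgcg
Nr4a3, chr4:48045079-48045108, plus strand: tagcgtcccatgtCGTCAcatTGACGtctc
Egr2, chr10:67537745-67537774, plus strand: caaattggccatgTGACGgcaaaagctgcc
The Nr4a1 and Nr4a3 lines show 2 of the 4 half-sites, the Nr4a2 line shows all 4, and the Egr2 line shows 1 of the 2 found in that window. The Nr4a1, Nr4a3 and Egr2 stretches lie inside the RefSeq span of their gene and before 1 of its annotated starts. The same Egr2 window also held a CArG box, the element of serum response factor, which 1.47% of windows held. No window of Nr4a1, Nr4a2, Nr4a3 or Egr2 held the letters GCGTGGGCG of an EGR site, found in 0.536% of windows. Nor did any hold AAAGGTCA of an NR4A site, found in 1.34%. Egr1 and Egr3 had no window in this search. Such matches describe letters and not binding. The genes span chr15:101253902-101274795 (Nr4a1), chr2:57106830-57124003 (Nr4a2), chr4:48045078-48086447 (Nr4a3), chr10:67534469-67542188 (Egr2) and chr14:70077317-70082613 (Egr3).

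The libraries differed in what they held. The Tc1 library kept 11933 barcodes and the Tc9 library 8204, from totals of 106053410 and 50713493 unique molecular identifiers (UMIs), each of which counts 1 captured RNA molecule. The sort was for CD4 T cells, yet these made up 21.4% of the Tc1 barcodes and 88.3% of the Tc9 barcodes, and 51.1% of the Tc1 barcodes were myeloid. The CD4 T cells numbered 2554 in Tc1 and 7247 in Tc9, with medians of 3153.5 and 5097 UMIs. Of all barcodes, 148 sequences occurred in both libraries. Within CD4 T cells, macrophage markers summed to 470 CPM in Tc1 and 17.5 in Tc9, with 9 of 9 above 0 in each. CPM is the usual depth-scaled unit, a gene's UMIs over all UMIs of the population. Red cell and platelet markers summed to 7033 and 0.829 CPM, with Hba-a1, Hba-a2 and Ppbp at 0 in Tc9, and heat shock genes to 4712 and 3363 CPM. The part of these differences in the results below was not tested.

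In CD4 T cells, Nr4a1 and Nr4a3 were higher in the Tc9 library, Nr4a2 and Egr1 lay closer together, and Egr2 and Egr3 were scarce in both. The Nr4a1 level was 161 CPM in Tc1 and 469 in Tc9 (log2 ratio of Tc9 over Tc1 1.54, interval 1.46 to 1.61). The Nr4a3 level was 95.7 CPM in Tc1 and 225 in Tc9 (log2 ratio 1.23, 1.14 to 1.33). For both genes the counting intervals of the libraries lay apart, and no single cell held more than 1.74% of either gene's UMIs. Nr4a2, best known from dopamine neurons but also induced in T cells, was at 91.2 and 130 CPM (log2 ratio 0.51, 0.41 to 0.61).

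Among the EGR genes, Egr1 was at 174 CPM in Tc1 and 209 in Tc9 (log2 ratio 0.27, 0.19 to 0.34). Egr3 was at 4.58 and 14.7 CPM from 44 and 604 UMIs (log2 ratio 1.68, 1.24 to 2.16). The Tc1 share of cells with Egr3, given below, was not read as expression, so this ratio sets the Tc9 level against a value near the floor. Egr2 was at 6.14 and 6.46 CPM, under the minimum of 10 CPM in 1 library that a gene needed to be counted, with a log2 ratio of 0.07 (-0.34 to 0.50). Of the 5 members at that minimum, 3 were at least 1.5-fold higher in Tc9 and 0 lower, and at a minimum of 25 CPM 2 were higher. Egr3 reached the minimum through Tc9 alone and so could not count as lower. The same holds for Egr3 in the cells with Foxp3, with Ifng and with none of the marker genes, in clusters 0, 4 and 7, and in NK-like, myeloid and cycling T cells. Egr2 reached it through Tc9 alone in NK-like cells. Through Tc1 alone it was reached by Egr3 in fibroblast-like cells and by Egr2 in cluster 20 and cycling T cells. Counts of members in these populations are therefore descriptions and are not read as support for a direction. Among all 8126 genes tested in CD4 T cells, 5.45% were higher and 16% lower by that fold, with a median log2 ratio of -0.14. A shift of the scale by 0.27 with TMM factors, or by 0.14 with the median ratio of genes, put Nr4a2 past 1.5-fold as well. With each of 9 clusters given equal weight, the log2 ratio was 0.13 for Nr4a3 and -0.47 for Egr3, so these calls changed with the weights of the clusters, while Nr4a1 was at 1.14. Subtracting free RNA estimated from all myeloid markers, which put it at 59.9% of the Tc9 CD4 UMIs, gave 0.037 for Egr3, and an estimate of 25.3% from the C1q genes, chosen after that result was seen, gave 1.4002. Without cluster 7, Egr1 reached 0.71. Whether fewer cells with a gene or less RNA per cell underlies a summed level cannot be told apart from the sum alone.

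Cells were also counted by whether they held a member's UMI, after each was thinned to 2000 UMIs so that depth was equal, which kept 2171 and 6820 of the CD4 T cells. Nr4a1 was found in 20.04% (18.4 to 21.8) in Tc1 and 46.1% (44.9 to 47.3) in Tc9. Nr4a3 was found in 14.7% and 28.1%, and Egr1 in 21.0% and 23.4%. Without thinning, the shares for Nr4a1 were 30.3% and 65.1%. At least 1 NR4A gene was detected in 38.3% of Tc1 cells and 64.5% of Tc9 cells, whereas at least 1 EGR gene was detected in 22.1% and 24.99%. The melanoma-like cells of Tc1, deeper at a median of 11038.5 UMIs, are the lowest comparison for the EGR genes. In 299 of them after thinning, Nr4a1 was found in 12.7% (9.15 to 17.02), Egr1 in 2.34%, and Egr2 and Egr3 in 0, with an upper bound of 1.23%. The Tc1 CD4 T cells had Egr2 in 1.24% (0.821 to 1.80) and Egr3 in 0.737% (0.422 to 1.19), which overlaps that range and was not read as expression.

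**Figure D1:**
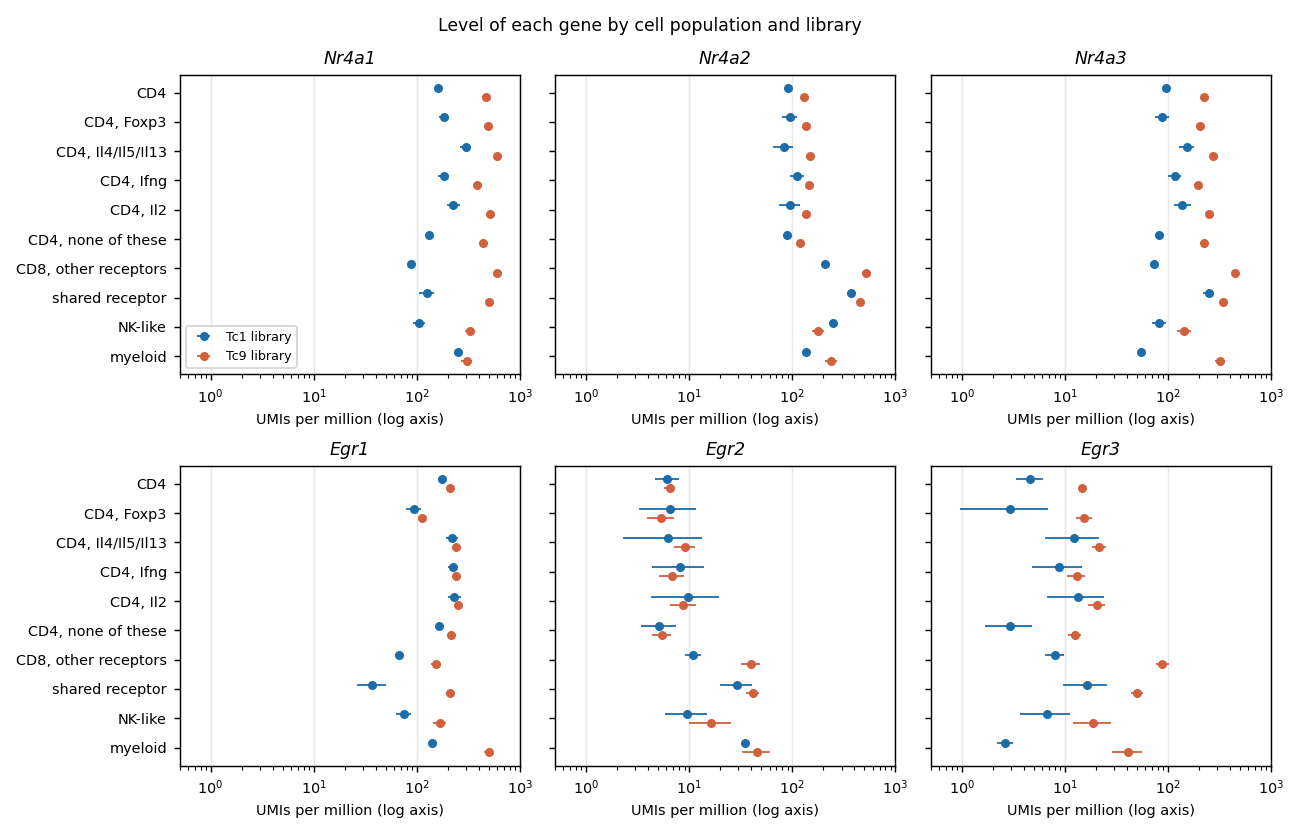
CPM (log axis) of the 6 genes in 10 cell populations, with blue points for the Tc1 library, orange points for the Tc9 library and bars for 95% Poisson intervals. The row named CD8, other receptors, holds CD8 T cells without the receptor chain shared by both libraries, including those with no receptor read. Nr4a1 in CD4 T cells lies at 161 in Tc1 and 469 in Tc9, while the 2 libraries' points for Egr2 in CD4 T cells overlap.

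Foxp3, the factor that defines regulatory T cells, marked 255 CD4 T cells in Tc1 and 1162 in Tc9. Nr4a1 was at 184 and 487 CPM in them, with a log2 ratio of 1.401 (1.23 to 1.57), and Nr4a3 at 88.1 and 206 CPM, with 1.23 (0.99 to 1.48). Egr1 was low in these cells in both libraries, at 93.4 and 112 CPM. The cells with Foxp3 had Egr1 in 14.8% and 13.8% after thinning, below the 19.6% and 23.5% of cells with none of Foxp3, Il4, Il5, Il13, Ifng and Il2, and the intervals lay apart in Tc9 only. In the cells with Foxp3, 3 of 5 members were higher, beside 14.5% of all genes tested, and 0 were lower, beside 21.7%.

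Cluster 0, led by Foxp3, Ikzf2, Il2ra and Ctla4, held enough cells in both libraries for a comparison inside 1 cluster, with 294 cells in Tc1 and 1331 in Tc9. Nr4a1 was at 194 and 498 CPM (log2 ratio 1.36, 1.21 to 1.52), and Nr4a3 at 89.1 and 218 CPM (1.29, 1.06 to 1.53). Nr4a2 was at 88.5 and 142 CPM (0.68, 0.45 to 0.92), and Egr1 at 105 and 111 CPM (0.09, -0.13 to 0.32). Egr3 was at 2.67 CPM from 5 UMIs and at 17.5 CPM. In cluster 0 the members higher in Tc9 numbered 4 of 5, beside 15.5% of all genes, and those lower 0, beside 21%. Its macrophage markers summed to 422 CPM in Tc1 and 18.5 in Tc9, and its red cell and platelet markers to 4499 and 0.795 CPM.

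The other CD4 clusters with at least 50 cells in both libraries differed among themselves. Cluster 7, whose leading genes include the haemoglobin gene Hbb-bs and the checkpoint gene Pdcd1, held 51.5% of the Tc1 CD4 T cells and 1.56% of those in Tc9. There Nr4a1 was at 173 and 284 CPM (log2 ratio 0.71, 0.46 to 0.96) and Nr4a3 at 100.3 and 119 CPM (0.25, -0.15 to 0.62), so Nr4a3 did not reach 1.5-fold. Heat shock genes ran the other way from the whole class here, with 10 of 11 higher in Tc9, a median log2 ratio of 1.49 and sums of 4977 and 11163 CPM. Their part in the member ratios was not tested. Cluster 7 had 2 of 5 members higher, beside 8.04% of all genes, and 0 lower, beside 27%. In cluster 17, led by Sidt1, St8sia1 and S1pr1, Nr4a1 was at 104 and 349 CPM (1.75, 1.29 to 2.26). There 2 of 4 members were higher, beside 13.8% of all genes, and 0 lower, beside 21.5%. In cluster 20, Nr4a1 was at 136 and 348 CPM (log2 ratio 1.35) from 24 and 1348 UMIs, whereas Egr1 was at 488 and 178 CPM, lower in Tc9 by a log2 ratio of -1.45 (-1.78 to -1.11). Cluster 20 had 2 of 5 members higher, beside 14.3% of all genes, and 2 lower, beside 32.2%.

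**Figure D2:**
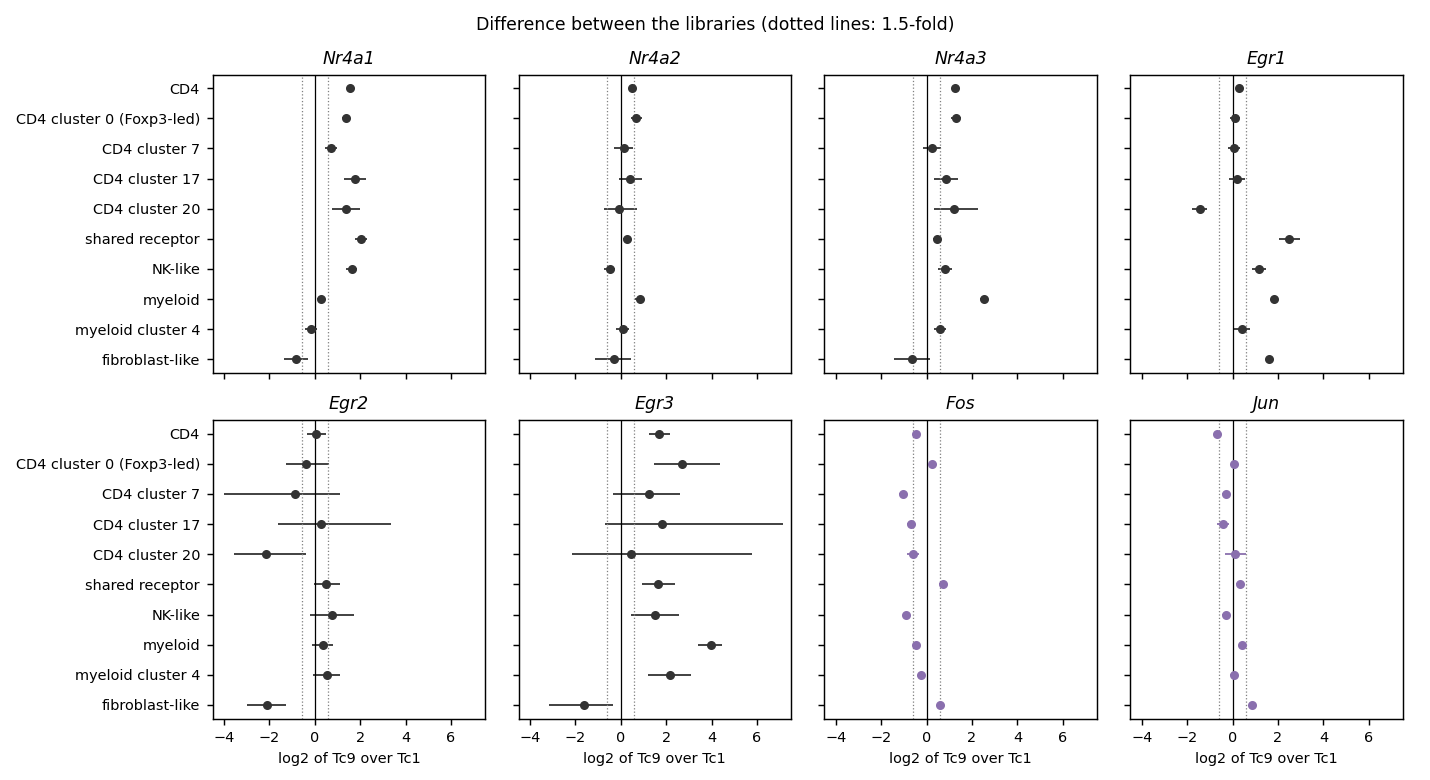
Log2 of the Tc9 level over the Tc1 level for the 6 genes and for Fos and Jun in 10 populations, with 95% counting intervals, a solid line at 0 and dotted lines at 1.5-fold. Nr4a1 lies right of the upper dotted line in CD4 T cells at 1.54 and in cluster 0 at 1.36, and left of the lower one in fibroblast-like cells at -0.82.

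The CD4 T cells with a UMI of a type 2 cytokine held more Nr4a1 than those without, and those with Ifng did not in Tc9. Cells with Il4, Il5 or Il13, the cytokines of type 2 help, had 298 CPM of Nr4a1 in Tc1 and 601 in Tc9, and after thinning 28.2% (22.3 to 34.6) and 56.5% (53.5 to 59.3) of them had the gene. In cells with none of the marker genes Nr4a1 was at 131 and 437 CPM, and 17.9% (15.9 to 20.1) and 43.3% (41.5 to 45.0) had it, so the intervals lay apart within each library. Cells with Il2, the T cell growth factor, had 226 and 516 CPM, and cells with Ifng, the type 1 cytokine, had 182 CPM in Tc1 and 382 (369 to 397) in Tc9, the latter under the 437 (427 to 447) of cells with none. In the thinned Tc9 cells the Nr4a1 share in cells with Ifng, 41.4%, overlapped with that of cells with none of these genes.

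Nr4a3 was at 152 CPM for Tc1 and 272 for Tc9 in cells with Il4, Il5 or Il13, at 138 and 250 CPM in cells with Il2, and at 82.5 and 224 CPM in cells with none of the genes. After thinning, the cells with a type 2 cytokine had it in 22.7% (17.4 to 28.8) and 33.5% (30.8 to 36.3), and those with Il2 in 18.8% (13.6 to 25.1) and 31.1% (28.1 to 34.3), so these neighbours overlapped. Among cells with Il4, Il5 or Il13, 4 of 5 members were higher in Tc9, beside 9.29% of all genes, and 0 lower, beside 23.8%. Among cells with Il2, 3 of 5 were higher, beside 9.67%, and 0 lower, beside 24.2%. Among cells with Ifng, 2 of 5 were higher, beside 8.14%, and 0 lower, beside 19.9%. Among cells with none of these genes, 3 of 5 were higher, beside 5.76%, and 0 lower, beside 16.4%. A cytokine UMI is itself found more often in deeper cells, and its detection was not thinned.

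Clusters 12 and 8, held mostly by Tc9, had the highest Nr4a1 and Nr4a3 levels among the 5 CD4 clusters with over 500 cells in that library. Cluster 12, led by Il13, Il5, Il1rl1 and Il4, had 673 CPM of Nr4a1 and 302 of Nr4a3 in 869 Tc9 cells, with 45 cells in Tc1. Cluster 8, led by Cd40lg, which encodes a ligand of help to B and myeloid cells, had 513 CPM of Nr4a1 and 278 of Nr4a3 in 1890 Tc9 cells, with 37 in Tc1.

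The members were partly detected in the same cells. In thinned Tc9 CD4 T cells, Nr4a3 was found in 35.1% (33.4 to 36.8) of cells with Nr4a1 and in 22.2% (20.8 to 23.5) of cells without it. In Tc1 the same shares were 19.3% (15.7 to 23.3) and 13.6% (12.02 to 15.3). Egr3 marked 132 thinned Tc9 cells, of which 70.5% (61.9 to 78.1) also had Nr4a1, against 45.6% (44.4 to 46.8) of the others. At least 3 of the 6 members were detected in 3.32% of Tc1 cells and 9.75% of Tc9 cells. These shares were not adjusted for differences in member level between clusters.

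Fos and Jun lay lower in Tc9, Jun past 1.5-fold and Fos short of it. In CD4 T cells Fos was at 807 CPM in Tc1 and 579 in Tc9 (log2 ratio -0.48, -0.52 to -0.44), and Jun at 512 and 322 CPM (-0.67, -0.72 to -0.62). Fosb was at 255 and 385 CPM (0.60, 0.53 to 0.66), Junb at 2160 and 2667 (0.30) and Jund at 1526 and 1723 (0.17). Fosb, past 1.5-fold, thus lay on the side of the NR4A genes. In cluster 0, Fos was at 392 and 465 CPM and Jun at 284 and 293 CPM, so the lower Fos and Jun of the whole class did not recur there.

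Of the 17 immediate early genes of handling stress in CD4 T cells, 2 were higher in Tc9, beside 5.45% of all genes, and 2 lower, beside 16%. Their median log2 ratio was 0.16 beside -0.14 over all genes. With TMM factors, 6 were higher and 1 lower, and at 2-fold 0 were higher and 1 lower. Shares of all genes were taken at 1.5-fold without TMM factors only. Nfkbiz, an inhibitor-like regulator of NF-kappaB, was the highest at 190 and 345 CPM (0.86), and Ier3 the lowest at 39.3 and 15.8 CPM (-1.31). Of 10 heat shock genes at the minimum, 0 were higher, beside 5.45% of all genes, and 5 lower, beside 16%. Hspa1a was the lowest at 288 and 52.1 CPM (-2.47).

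In CD4 T cells as a whole, the split by Fos or Jun UMIs went with a gap in Egr1 whose intervals lay apart. Among thinned Tc9 CD4 T cells, Egr1 was found in 27.5% (26.1 to 28.9) of cells with a Fos or Jun UMI and in 16.9% (15.4 to 18.4) of cells with neither. The same shares were 23.5% (21.4 to 25.6) and 14.0% (11.3 to 17.1) in Tc1. Nr4a1 was found in 46.6% (45.1 to 48.1) and 45.3% (43.3 to 47.2) of the Tc9 cells, and in 20.9% (18.9 to 22.9) and 17.8% (14.8 to 21.1) of the Tc1 cells, so its intervals overlapped in each library. Nr4a3 was found in 28.0% (26.7 to 29.4) and 28.3% (26.6 to 30.1) in Tc9, and in 15.3% (13.6 to 17.2) and 13.1% (10.5 to 16.2) in Tc1. Nr4a2 was found in 18.0% and 16.98% in Tc9, and in 14.0% (12.3 to 15.8) and 9.67% (7.39 to 12.4) in Tc1, where its intervals only just overlapped. Among cells with no Fos and no Jun UMI the log2 ratio of Nr4a1 between the libraries was 1.81. In cluster 0 of Tc1, Nr4a1 was found in 27.6% (21.1 to 35.0) and 15.2% (8.97 to 23.6), a wider gap with overlapping intervals. Egr1 was there found in 18.8% (13.2 to 25.5) and 10.5% (5.35 to 18.0), and Nr4a3 in 18.2% (12.7 to 24.9) and 8.57% (3.99 to 15.6), so in this cluster the split did not set Egr1 apart from the NR4A genes.

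**Figure D3:**
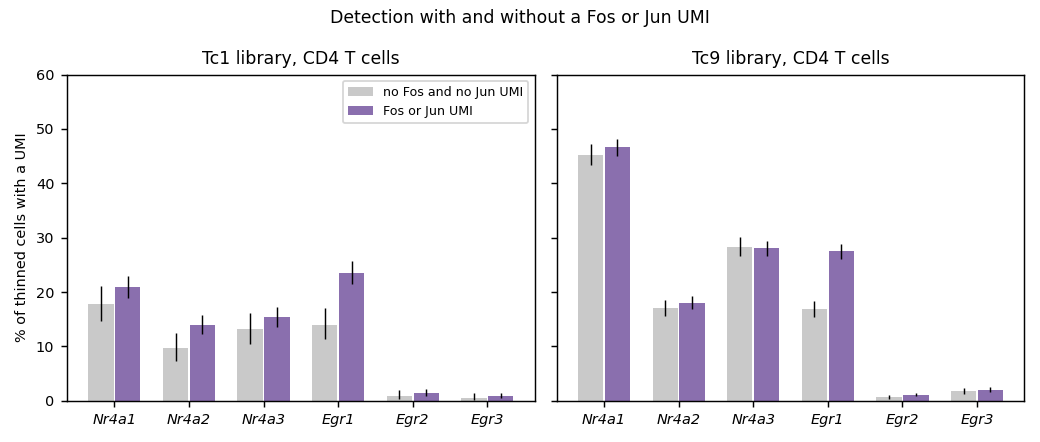
Percent of CD4 T cells with a UMI of each gene after thinning to 2000 UMIs, in purple for cells with a Fos or Jun UMI and in grey for cells with neither, with 95% Clopper-Pearson intervals. Egr1 is higher in the purple bars in both libraries (27.5% and 16.9% in Tc9), while the Nr4a1 bars overlap in their intervals.

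Other genes that receptor signals induce were read as a list of 30, of which 26 were at the minimum in CD4 T cells. Of these, 13 were higher in Tc9, beside 5.45% of all genes, and 2 lower, beside 16%, with a median log2 ratio of 0.58 against -0.14 over all genes, and at 2-fold 4 were higher and 1 lower. Il2ra, the high-affinity chain of the interleukin-2 receptor, was at 79.0 and 253 CPM (1.68), and Icos, a costimulatory receptor, at 152 and 442 CPM (1.54). Dusp4, a phosphatase that turns MAP kinases off, was at 22.9 and 48.8 CPM (1.09), and Irf8, a transcription factor also abundant in myeloid cells, at 31.3 and 14.2 CPM (-1.14). The list did not move as 1, since Cd69, an early activation marker outside the naming rule and chosen after its values were seen, was at 593 and 579 CPM.

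The kinases, adaptors and factors that carry the receptor signal differed less than the receptor-induced list. Of 25 at the minimum, 3 were higher in Tc9, beside 5.45% of all genes, and 0 lower, beside 16%. Their median log2 ratio was 0.11 beside -0.14 over all genes. With TMM factors 7 were higher, a setting for which no share of all genes was taken. Nfatc2, a calcium-driven factor, was at 83.1 and 126 CPM (0.60), and Malt1, a protease of the NF-kappaB branch, at 273 and 410 CPM (0.59). Of 22 negative regulators and anergy genes, 2 were higher, beside 5.45% of all genes, and 4 lower, beside 16%, with a median log2 ratio of -0.04, so the share that was lower is near that of all genes. With TMM factors, 5 were higher and 2 lower. Pdcd1, which encodes the checkpoint receptor PD-1, was at 91.6 and 26.7 CPM (-1.78), and Tigit, another inhibitory receptor, at 110 and 59.3 CPM (-0.89). Cish, a feedback inhibitor of cytokine and receptor signals, was at 173 and 275 CPM (0.67), and Rnf128, an ubiquitin ligase of anergy, at 11.8 and 20.2 CPM (0.78).

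A receptor beta chain shared by both libraries marked cells that were then read separately. Its CDR3, joined from TRBV14 and TRBJ1-6, was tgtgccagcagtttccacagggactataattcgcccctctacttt, found in 59 of 4356 barcodes with a beta chain in Tc1 and in 487 of 4025 in Tc9. Pmel-1 cells were transferred in both groups, but whether this chain is theirs was not checked. Together with 1 barcode of a second shared chain, 60 kept cells of Tc1 and 487 of Tc9 formed the shared-receptor population. Their median depths were 15154.5 and 7797 UMIs, and 85.0% and 41.3% had a Cd8a UMI.

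In these cells Nr4a1 was at 125 and 506 CPM (log2 ratio 2.02, 1.77 to 2.28), and Egr1 at 37.1 and 208 CPM (2.49, 2.04 to 2.98). Nr4a2 was at 374 and 450 CPM (0.26, 0.11 to 0.42), and Nr4a3 at 248 and 341 CPM (0.46, 0.28 to 0.65). In Tc1, 1 cell held 20.4% of the Nr4a3 UMIs. Without that cell, a setting chosen after seeing the data, Nr4a3 was at 199 and 341 CPM (0.78, 0.57 to 0.99), past 1.5-fold, and no other member crossed that fold. Egr3 was at 16.3 and 50.3 CPM (1.63, 0.94 to 2.41), and Egr2 at 28.9 and 41.1 CPM (0.51, -0.04 to 1.10). Of 6 members, 3 were higher in Tc9, beside 23.8% of all genes, and 0 lower, beside 30%, with a median log2 ratio of 1.07. Of the 17 genes of handling stress, 14 were higher and 1 lower, with a median of 1.17, which exceeds that of the members. Fos was at 351 and 575 CPM (0.71), Fosb at 119 and 389 CPM (1.70) and Junb at 694 and 2316 CPM (1.74), while Jun, at 257 and 323 CPM (0.33), stayed short of 1.5-fold. Markers of other cells were higher in Tc1, with sums of 4268 and 519 CPM for myeloid markers, 2963 and 164 for dendritic markers, and 1101 and 30.7 for macrophage markers. The part of these differences in the member ratios was not tested.

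In Tc9 the shared-receptor cells lay in both CD8 and CD4 clusters, 249 and 227 of them. Nr4a2 was at 587 CPM in the former and 242 in the latter, and Nr4a1 at 500.1 and 526 CPM. Egr1 was higher in the CD4 clusters, at 299 CPM against 149. Among the NR4A genes, Nr4a2 thus differed most between the CD8 and CD4 clusters of these cells. In Tc1, 34 of the 60 cells lay in CD8 clusters, 2 in CD4 clusters and 24 in neither, of which 12 lay in cycling T, 6 in NK-like and 6 in myeloid clusters. The ratios over all shared-receptor cells therefore compare cells of different clusters. Within CD8 clusters, 34 and 249 cells with myeloid marker sums of 1780 and 487 CPM, the log2 ratio was 2.39 (1.97 to 2.84) for Nr4a1, 0.15 (-0.04 to 0.35) for Nr4a2, 0.012 (-0.21 to 0.24) for Nr4a3 and 2.20 (1.49 to 3.02) for Egr1. This restriction does not match clusters either. Part 24.0 of cluster 24 held 62 cells of Tc1 and 0 of Tc9, and parts 24.5 and 24.8 held 0 of Tc1 and 85 and 75 of Tc9. The shared-receptor cells in CD8 clusters had a Foxp3 UMI in 0% and 23.7%, and a Cd4 UMI in 5.88% and 22.9%.

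The CD8 T cells without this chain were held by different clusters in the libraries, so their values are given side by side without a ratio. They include barcodes with no receptor read, so lacking the chain does not mean that another receptor was found. In the clone size count, only 8 CD8 T cells of Tc9 had a receptor seen once. The Tc1 cells, 1798 in number and mostly of cluster 3, which is led by Gzma, Ccl5 and Gzmk, had 88.7 CPM of Nr4a1, 206 of Nr4a2 and 72.6 of Nr4a3. The Tc9 cells, 203 in number and nearly all of cluster 24, whose parts are led by genes such as Ccl1, Rgs16 and Crtam, had 598, 522.5 and 450.0 CPM. In that Tc9 population 45.8% had a Cd4 UMI and 39.9% a Foxp3 UMI, so the label CD8 rests on more Cd8a or Cd8b1 than Cd4 detection in the cluster. Cluster 24 was also the one with the most shared-receptor cells of the CD8 class, so these cells may include carriers of the shared chain whose receptor was not read. Part 24.2 had 197 CPM of Egr3 and 939 of Nr4a1 in 53 Tc9 cells, and Egr3 was among its leading genes.

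NK-like cells numbered 313 in Tc1 and 123 in Tc9, all of cluster 10, which is led by Gzmc, Klrb1c, Ncr1 and Klre1. A Cd3 UMI was found in 90.4% in Tc1 and 53.7% in Tc9, and T lineage markers summed to 2790 and 1407 CPM, beside 3177 and 3093 in CD4 T cells. Cells of this class were therefore not read as free of a T cell receptor, and gamma-delta T cell markers summed to 143 and 141 CPM. The ratios below compare cells that differ between the libraries in Cd3 and Cd8a detection, the latter at 20.1% and 4.88%. The part of this in the ratios was not tested. Nr4a1 was at 105 and 325 CPM (1.63, 1.39 to 1.87), Nr4a3 at 82.6 and 143 CPM (0.80, 0.49 to 1.11) and Egr1 at 74.4 and 167 CPM (1.17, 0.86 to 1.48). Nr4a2 ran against them, at 248 and 177 CPM (-0.48, -0.72 to -0.25). Egr2 was at 9.60 and 16.4 CPM from 20 UMIs in each library (0.77, -0.20 to 1.74), and Egr3 at 6.72 and 18.9 CPM from 14 and 23 UMIs (1.49, 0.47 to 2.56). In the NK-like cells 5 of 6 members were higher, beside 14.2% of all genes, and 0 lower, beside 15.9%. Fos, at 796 and 427 CPM, was lower in Tc9 here too.

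Myeloid cells numbered 6092 in Tc1 and 122 in Tc9, and different clusters held most of them. Egr2, which is known in macrophages, was at 34.8 CPM in Tc1 and 45.0 in Tc9, above its level in CD4 T cells of either library. Nr4a1 was at 251 and 304 CPM (0.28), Nr4a3 at 55.1 and 321 (2.54), Egr1 at 141 and 497 (1.82) and Egr3 at 2.63 and 40.7 (3.95). Clusters 2, 5, 6 and 14 held most of the Tc1 cells, and clusters 4, 22, 2 and 18 most of the Tc9 cells. In the myeloid class 4 of 6 members were higher, beside 34.9% of all genes, and 0 lower, beside 18.9%. Within Tc1, cluster 5, led by Cxcl3, Ppbp and Arg1, had 61.8 CPM of Egr2, and cluster 6, led by Ccl8 and Mmp12, had 7.16 CPM. Cluster 18, led by the neutrophil genes S100a9 and S100a8, had 1942 CPM of Egr1, found in 86.4% of its thinned Tc1 cells. Cluster 22, led by Ccl22, Fscn1 and Ccr7, genes of migrating dendritic cells, had 373 CPM of Nr4a3.

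Cluster 4, led by Cd209a and Mgl2, was the myeloid cluster with at least 50 cells in both libraries, 306 and 57. There Nr4a1 was at 287 and 255 CPM (-0.17, -0.43 to 0.08), Nr4a2 at 206 and 220 CPM (0.09, -0.19 to 0.36), and Egr1 at 108 and 142 CPM (0.40, 0.04 to 0.75). Nr4a1 thus did not differ beyond counting error in this cluster, and its interval excludes the log2 ratio of 1.54 seen in CD4 T cells. Nr4a3 was at 158 and 239 CPM (0.60, 0.32 to 0.86), and Egr3 at 6.67 and 29.9 CPM. In cluster 4, 2 of 6 members were higher, beside 29.7% of all genes, and 0 lower, beside 18%, so the share of members is near that of all genes.

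Fibroblast-like cells, 68 and 80 in number, had the lowest Nr4a1 of the Tc9 classes with at least 50 cells, and high Egr1. Nr4a1 was at 103 CPM in Tc1 and 58.3 in Tc9 (-0.82, -1.36 to -0.31), while Egr1 was at 569 and 1746 CPM (1.62, 1.48 to 1.75). In fibroblast-like cells 1 of 6 members was higher, beside 31.3% of all genes, and 4 lower, beside 22.2%. Fos was at 1198 and 1786 CPM there, and Jun at 941 and 1717 CPM. The cycling T cells of cluster 1, 503 and 78 in number, had 4 of 6 members higher, beside 20.6% of all genes, and 2 lower, beside 21.8%, and 83.7% and 8.97% of them had a Cd8a UMI.

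Clone size came from the receptor libraries and not from RNA levels. Among CD4 T cells of Tc1, 467 cells had a receptor seen once, and 349 cells belonged to 44 receptors of at least 3 cells. Nr4a1 was at 126 CPM (111 to 142) in the first and 221 CPM (196 to 249) in the second, and Nr4a2 at 48.5 (39.6 to 58.9) and 119 CPM (100.3 to 139). In Tc9, with 502 cells of receptors seen once and 969 cells of 106 expanded receptors, Nr4a1 was at 396 (375 to 418) and 475 CPM (457 to 492), and Nr4a2 at 92.5 (82.3 to 104) and 126 CPM (117 to 136). Egr1 was at 108 and 186 CPM in Tc1, and at 139 and 195 CPM in Tc9. Cells of expanded receptors thus had more Nr4a1, Nr4a2, Nr4a3 and Egr1 in each library, by log2 ratios of 0.79 to 1.29 in Tc1 and of 0.26 to 0.49 in Tc9. Cells of 1 clone are not independent, and the intervals do not account for that.

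**Figure D4:**
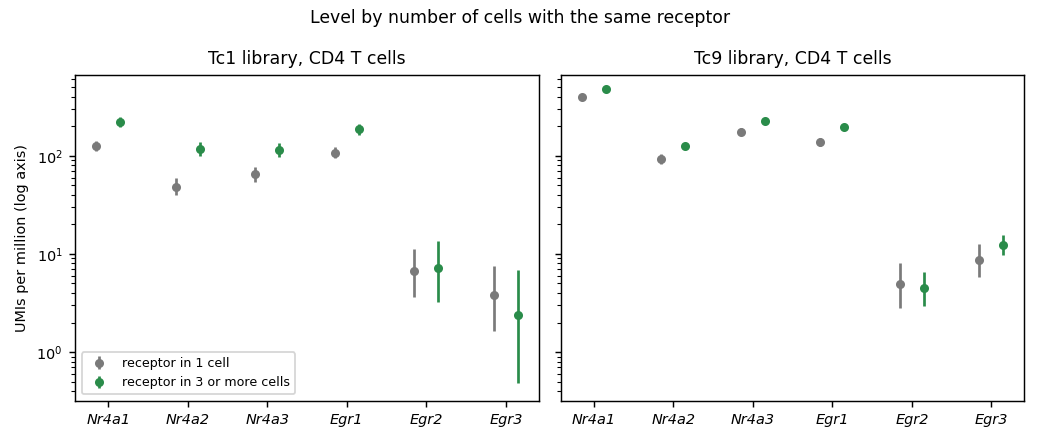
CPM (log axis) of the 6 genes in CD4 T cells whose receptor was seen in 1 cell (grey) or in 3 or more cells (green), with 95% Poisson intervals. Nr4a1 in Tc1 lies at 126 and 221, and in Tc9 at 396 and 475.

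The pattern of each member across populations was compared with that of 7080 genes over 16 points of class and library, by the Pearson correlation of log2(CPM + 10), as a description only, since points of a library share their depth. Nr4a1 was most like Mpp7, Tgif1 and Rab11fip1 (r of 0.93, 0.92 and 0.92), and Nr4a3 most like Itgae, Bhlhe40 and Il4 (0.93, 0.88 and 0.88). Nr4a2 was most like Gramd1b, Adora2a and Lfng (0.91, 0.89 and 0.88). Egr1 was most like Man1a, Tnrc18 and Gm26802 (0.93, 0.92 and 0.91), Egr2 most like Abcc1, Ccl8 and Smim3 (0.86, 0.79 and 0.79), and Egr3 most like Adamts6, Nfat5 and Nfkb1 (0.88, 0.86 and 0.85). Over 48 points of cluster and library, Nr4a1 and Nr4a3 had an r of 0.76 with each other, and of 0.12 and -0.22 with Fos, whereas Egr1 had 0.54 with Fos. With Fosb the values were closer, at 0.62 for Nr4a1, 0.61 for Nr4a3 and 0.69 for Egr1, and with Junb they were 0.60, 0.30 and 0.48.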

How the data were processed

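The deposited values are counts of UMIs per gene and barcode, and contigs with counts of reads and UMIs, for which the submitters' processing notes name Cell Ranger 7.0.0 and mm10 (GRCm38). Barcodes were kept from 500 genes upward and up to 10% of mitochondrial UMIs. Clusters (scanpy 1.11.5, 2000 variable genes, 30 components, 15 neighbours, Leiden resolution 1, seed 1) were named from marker lists. Class names are thus rebuilt, and no doublet caller was run. UMIs were summed per class and library, with exact Poisson, Clopper-Pearson and conditional binomial intervals. Ratio intervals treat UMIs of 1 cell as independent and are therefore too narrow. A gene was counted as higher or lower from 1.5-fold, among genes with at least 10 CPM in 1 library. The calculation was run on simulated data for CD4 T cells: 100% of 200 changed genes among 7546 were called. Every planted change was at least 2-fold, so past the 1.5-fold cut, and the sums were drawn with Poisson error only. Variation between cells, clones or libraries was not simulated, so this checks the arithmetic and not the calls between the libraries. Named genes were the members, Fos, Fosb, Jun, Junb, Jund, Foxp3, Cd4, Cd8a, up to 4 genes per list with the largest ratios, and the 3 most like each member. A gene that this rule names is not reported here. The members, lists and rules were chosen with earlier results of these data known. Numeric limits of cluster naming were set with the data in hand. Promoter sequences and positions are from RefSeq (GRCm38.p6), with 4 of 6 members matched in the promoter table.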

Additional observations from a re-analysis of the deposited data

Results flagged for a closer look

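Several ratios between the libraries ran in opposite directions in different cell classes, and the differences between classes were not themselves tested. Nr4a1 was lower in Tc9 in fibroblast-like cells (log2 ratio -0.82), but higher in CD4 T cells (1.54), shared-receptor cells (2.02), NK-like cells (1.63) and the cycling T cells of cluster 1 (1.39). Nr4a2 was lower in the cycling T cells (-0.88) and higher in myeloid cells (0.83). Egr3 was lower in fibroblast-like cells (-1.62, from 31 and 6 UMIs), but higher in CD4 T cells (1.68), shared-receptor cells (1.63), NK-like cells (1.49), myeloid cells (3.95) and cycling T cells (2.02). It reached 10 CPM through Tc1 alone in fibroblast-like cells, and through Tc9 alone in CD4, NK-like, myeloid and cycling T cells. In those classes it could be counted in 1 direction only. In CD4 T cells its ratio was -0.47 with equal cluster weights and 0.037 after the planned free RNA subtraction. Each value rests on 1 library per group. The myeloid cells of the libraries lay mostly in different clusters, and Nr4a2 stayed short of 1.5-fold in cluster 4, which held cells of each. Of the cycling T cells, 83.7% in Tc1 and 8.97% in Tc9 had a Cd8a UMI.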

How the results depend on the processing

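No paired analysis was possible because each group has 1 library and the labels carry no replicate numbers, and for the same reason no library could be left out. Nr4a1 stayed past 1.5-fold in CD4 T cells under all 17 alternatives (log2 0.998 to 1.81), Nr4a3 under 16 (0.13 to 1.499) and Egr3 under 15 (-0.47 to 1.95). For Nr4a1, Nr4a2, Nr4a3 and Egr1, TMM factors gave 1.80, 0.77, 1.499 and 0.53, and the median ratio of genes 1.68, 0.65, 1.38 and 0.41. A gate on Cd4 and Cd3 UMIs gave them 0.998, 0.20, 1.39 and 0.48, and Egr2 -1.72. Mitochondrial UMIs of at most 5% gave Egr1 0.19. The mean over cells gave Nr4a2 0.37 and Nr4a3 1.09. Without the 7 clusters held by 1 library, Nr4a1 was 1.21, Nr4a3 0.86, Egr1 0.35, Egr2 -0.53 and Egr3 1.16. Cells with no macrophage UMI gave Nr4a3 1.48. Cells with no Fos and no Jun UMI gave Nr4a1 1.81, Nr4a2 0.79, Egr1 0.50 and Egr2 -0.40.

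Free RNA estimated from all myeloid markers was 11.8% of CD4 UMIs in Tc1 and 59.9% in Tc9, where CD4 T cells are 88.3% of the library whose profile is subtracted. It gave Nr4a2 -0.39, Nr4a3 1.05, Egr1 -0.024, Egr2 -4.47 and Egr3 0.037. Estimates from the C1q genes, added after that result was seen, were 12.8% and 25.3% and gave Egr1 0.15, Egr2 0.28 and Egr3 1.4002. With the profile of barcodes outside the CD4 T cells they were 11.8% and 6.07%, with the same ratios by construction. Also chosen after seeing the data were the next settings. Without cluster 7, Nr4a1 was 1.64 and Egr1 0.71. Equal weight for 9 clusters gave Nr4a1 1.14, Nr4a2 -0.11, Nr4a3 0.13, Egr1 0.35, Egr2 -0.82 and Egr3 -0.47. The causes were not tested. For the receptor-induced list, no minimum gave 5 genes lower, and 2-fold gave 4 higher and 1 lower. For handling stress, 2-fold gave 0 higher and 1 lower, TMM factors 6 higher and 1 lower, and the median ratio 1 lower. The Egr2 share in Tc9 minus Tc1, -0.32 points, was 0.011 at 1000 UMIs and 1.10 without thinning. Depth limits Egr2 and Egr3 most, with 59 and 44 UMIs in Tc1 CD4 T cells.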
